A study of Mus musculus with 6 samples.

Results

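The genes described here encode the organic anion and cation carriers of the kidney: the Slc22a family, the organic anion transporting polypeptides (Slco) and the Slc47a exchangers. Members were all protein-coding genes of the deposited tables whose symbol begins with Slc22a, Slco and a digit, or Slc47a, with Slc22a5 and Slc22a21 left out. This gave 39 of 55401 genes: 23 Slc22a genes, 14 Slco genes and 2 Slc47a genes. Of these, 32 passed the filter on low counts and were among the 17194 genes tested. Poly(A) RNA of mouse kidney tissue was sequenced in 6 libraries, 3 in each of 2 groups, and the labels call them biological replicates. WT/Sed kidneys came from wild-type mice and Cdo1KKO/Sed kidneys from mice of the genotype named Cdo1KKO, which the title ties to Cdo1 of the renal tubule. Both groups carried type 1 diabetes brought on with streptozotocin, a toxin of insulin-producing cells. What Sed stands for is not spelled out in the labels, which also give no age, sex, batch, strain or Cre driver, and no group of non-diabetic mice was analysed here.

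In the kidney, these carriers clear drugs, toxins and metabolites from blood into urine, mostly in the proximal tubule. Carriers on the blood side take organic anions up in exchange for dicarboxylates, and organic cations along the membrane voltage. Carriers on the urine side then release them, cations in exchange for protons, and others on that side take urate and similar anions back from the filtrate. Several of these genes are known targets of the nuclear receptor HNF4A, and some differ between male and female mice.

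The promoters of 5 members are shown to set genes that fell in Cdo1KKO/Sed, by the test described below, beside one that rose. Slc22a12, Slc22a6 and Slc22a8 are abundant members that fell, Slc22a13 fell most among the Slc22a members, and Slc22a23 rose. Each runs 5′ to 3′ on the gene's strand over 300 bases around the RefSeq start of the gene (GRCm38.p6), and capitals mark a match to the TATA box letters TATAAA on either strand.
Slc22a8, chr19:8592932-8593231 (plus strand): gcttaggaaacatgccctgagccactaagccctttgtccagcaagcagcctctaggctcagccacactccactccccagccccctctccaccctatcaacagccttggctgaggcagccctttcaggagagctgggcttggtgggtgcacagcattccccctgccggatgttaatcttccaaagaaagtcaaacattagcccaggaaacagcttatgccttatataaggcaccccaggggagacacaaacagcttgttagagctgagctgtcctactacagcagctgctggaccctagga
Slc22a6, chr19:8617746-8618045 (plus strand): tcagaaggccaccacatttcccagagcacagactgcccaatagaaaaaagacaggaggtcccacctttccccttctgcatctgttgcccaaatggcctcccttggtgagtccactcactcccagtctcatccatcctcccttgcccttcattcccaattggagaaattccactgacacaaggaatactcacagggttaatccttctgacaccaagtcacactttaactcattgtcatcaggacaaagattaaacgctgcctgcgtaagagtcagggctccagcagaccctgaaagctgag
Slc22a12, chr19:6543021-6543320 (minus strand): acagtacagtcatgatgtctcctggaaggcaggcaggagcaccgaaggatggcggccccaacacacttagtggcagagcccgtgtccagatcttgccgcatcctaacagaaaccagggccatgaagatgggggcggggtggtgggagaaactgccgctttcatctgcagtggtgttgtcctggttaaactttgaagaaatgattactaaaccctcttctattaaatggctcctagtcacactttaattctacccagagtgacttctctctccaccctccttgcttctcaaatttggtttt
Slc22a13, chr9:119209056-119209355 (minus strand): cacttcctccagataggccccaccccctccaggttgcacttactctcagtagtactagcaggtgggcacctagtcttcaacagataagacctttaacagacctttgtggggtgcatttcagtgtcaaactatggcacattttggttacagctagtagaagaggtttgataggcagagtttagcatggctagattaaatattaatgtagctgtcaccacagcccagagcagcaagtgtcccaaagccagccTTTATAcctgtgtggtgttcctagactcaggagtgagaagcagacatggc
Slc22a23, chr13:34345169-34345468 (minus strand): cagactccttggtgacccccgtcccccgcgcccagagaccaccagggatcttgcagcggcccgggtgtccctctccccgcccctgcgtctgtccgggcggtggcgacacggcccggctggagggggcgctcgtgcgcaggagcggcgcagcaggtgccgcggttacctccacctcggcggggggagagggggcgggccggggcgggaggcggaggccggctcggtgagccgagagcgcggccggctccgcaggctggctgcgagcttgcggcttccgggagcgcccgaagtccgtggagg

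Of the promoters shown, that of Slc22a13 alone holds an exact match, as the reverse complement TTTATA at the start of the gene. Near matches, such as the letters tatataag in the promoter of Slc22a8, were not searched for or marked. RefSeq promoters were matched by symbol for 34 of the 39 members (39 promoters). TATAAA or its reverse complement was in 8 of these 39 promoters, beside 13.6% of 32851 mouse promoters of this length. By gene, it was in a promoter of 7 of the 34, and of 2 of the 14 with a promoter that fell (Slc22a13 and Slc22a22). A core of the HNF4A motif, CAAAGTCCA (reverse complement TGGACTTTG), was in none of the 39 member promoters and in 0.475% of all promoters. A match this rare makes its absence from 39 promoters uninformative. The median G and C content was 47.7% over the 15 promoters of members that fell, over the 3 promoters of members that rose 66.0%, and over all promoters 52.7%. These are descriptions of the sequences and not evidence of binding.

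Levels below are CPM (counts scaled to library size with TMM factors) where libraries are compared for 1 gene, and TPM (deposited values that account for gene length) where genes are compared with each other. Values of libraries are given in the order replicate 1, 2 and 3. Changes are log2 ratios of Cdo1KKO/Sed to WT/Sed with an approximate SE from edgeR's quasi-likelihood test. Rose and fell are used where the adjusted p (Benjamini-Hochberg, over all genes tested) was under 0.05. In bulk tissue such as this, fewer cells of a type and less RNA per cell cannot be told apart. The libraries held 28145261 to 43872779 counts, of which the members took 0.521% to 0.616% in WT/Sed, against 0.395% to 0.435% in Cdo1KKO/Sed. The labels do not tie libraries to single animals, so the p-values measure the spread between these libraries, which may be in part technical. Cdo1 itself was at 184 ± 5.79 CPM (mean ± SD, n = 3) in WT/Sed, against 110.1 ± 7.94 CPM in Cdo1KKO/Sed (-0.74 ± 0.06, edgeR adjusted p = 4.64e-06), so that it was lower but still present in the libraries labelled Cdo1KKO/Sed. This change lay within the range of 16 proximal tubule markers (median -0.65, range -0.93 to -0.22). What part of it belongs to the genotype was not tested.

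With TMM scaling, most carriers measured in these diabetic kidneys were lower in Cdo1KKO/Sed, while with libraries scaled to proximal tubule markers most did not pass in either direction. Of 32 members tested 18 fell, where 18.5% of all genes tested fell, and 4 rose, where 18.9% of all genes rose (37.4% in either direction). Of the 4, Slco5a1 passed the filter on low counts only through Cdo1KKO/Sed and so had to differ. Over all genes 3185 fell and 3250 rose, and with library size as the only scaling 1685 fell and 5513 rose. The median log2 fold change of the members tested was -0.55, against 0.01 for all genes tested. The falls ranged from -1.09 to -0.42, and the groups did not overlap in CPM for 19 members that were lower, where 24.5% of all genes tested were lower in this way, and for 4 that were higher, where 25.7% were. Proximal tubule markers were lower too. With libraries scaled to 16 such markers instead of TMM, 3 members fell and 8 rose, where 1.38% of all genes fell and 71.1% rose, and 7 of the 18 changed sign. Because the members were chosen with earlier results of these data known, their count is a description.

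**Figure D1:**
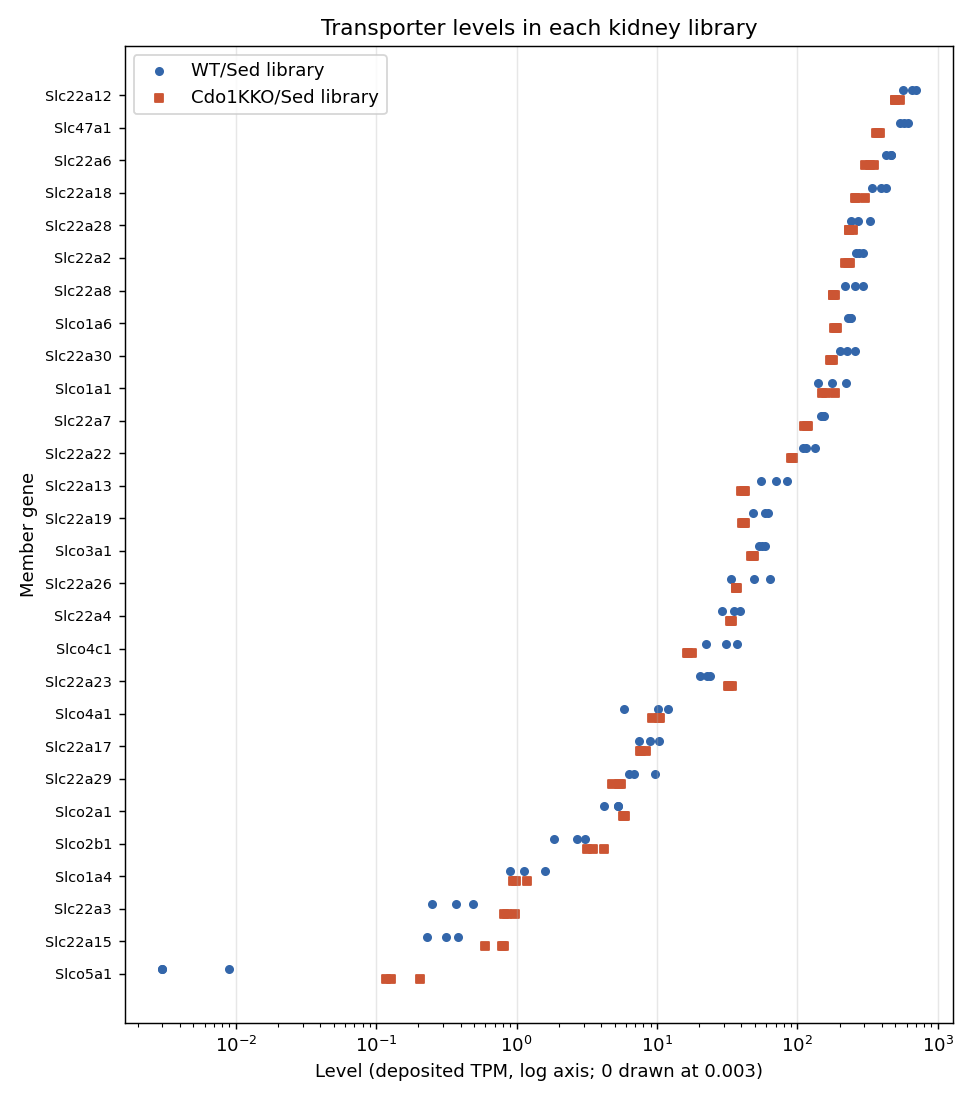
Deposited TPM (log axis) of 28 of the 29 members that reached a mean of 1 CPM or were called, with circles for the 3 WT/Sed libraries and squares for the 3 Cdo1KKO/Sed libraries. The 13 members of at least 100 TPM in WT/Sed span 119.5 to 637 TPM. For Slc22a23, Slc22a15, Slc22a3 and Slco5a1, which rose, the Cdo1KKO/Sed libraries lie above those of WT/Sed. The same holds for Slco2a1 and Slco2b1, which did not pass the test.

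Most of the abundant members fell. By mean TPM in WT/Sed, 13 members reached 100 TPM, and 12 of them fell, to between 54.5% and 71.1% of their WT/Sed CPM. Of 7 members between 10 and 100 TPM 4 fell and 1 rose. Of 12 members under 10 TPM 2 fell and 3 rose, Slco5a1 among these 3, which passed the filter only through Cdo1KKO/Sed. Across the 32 members tested, Slco5a1 included, Spearman's rho between the WT/Sed TPM and the log2 fold change was -0.552. It describes genes that share the same libraries. The WT/Sed level is also the base of the fold change, so error in that level by itself pushes rho towards negative values. The urate exchanger Slc22a12 was the most abundant member at 637 ± 68.8 TPM (SD, n = 3), followed by the cation exit carrier Slc47a1 at 575 ± 41.1 TPM and the anion exchanger Slc22a6 at 455 ± 21.3 TPM. Slc22a12 and Slc47a1 differed by less than the SD of Slc22a12, and Slc22a6 lay below both by more than either SD. These 3 held 37.0% of the summed TPM of all members in WT/Sed and 35.4% in Cdo1KKO/Sed. The order of the first 7 members was the same in both groups. Behind them, Slco1a6 and Slc22a8 changed places, at 236 and 256 TPM in WT/Sed and 187 and 182 TPM in Cdo1KKO/Sed, differences within the SD of Slc22a8 in WT/Sed (36.5) and close to the SD of Slco1a6 in Cdo1KKO/Sed (5.38).

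Among the carriers that bring organic cations into the tubule cell, Slc22a2 fell while Slc22a3 rose from a very low level. Slc22a2 (OCT2; chromosome 17, 12584132 to 12628488, plus strand of GRCm38), a cation uptake carrier of the proximal tubule, stood at 301, 324 and 285 CPM in WT/Sed, against 216, 215 and 199.7 CPM in Cdo1KKO/Sed (-0.53 ± 0.06, adjusted p = 5.16e-05). The groups did not overlap, and each was narrow. Slc22a3 (OCT3; chromosome 17, 12418960 to 12507704, minus strand), a further family member in the same stretch of chromosome 17, held 0.976, 0.750 and 0.486 CPM in WT/Sed, against 1.41, 1.66 and 1.35 CPM in Cdo1KKO/Sed (1.00 ± 0.32, adjusted p = 0.0286). All 3 Cdo1KKO/Sed libraries were above WT/Sed, but the call was lost when WT/Sed replicate 3 or any single Cdo1KKO/Sed library was left out (edgeR adjusted p 0.0669 to 0.105). Slc22a3 overlaps Plg on the other strand, and 8.27% of its transcript 50-mers occur in Plg transcripts, so with the strand of counting not given in the sources used here its few counts are uncertain.

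Of the carriers of zwitterions 1 rose, 1 did not pass and 1 was not tested. Slc22a4 (OCTN1), which carries ergothioneine, held 39.8, 44.7 and 32.01 CPM in WT/Sed, against 30.96, 32.1 and 32.05 CPM in Cdo1KKO/Sed (-0.29 ± 0.11, adjusted p = 0.0554), with WT/Sed replicate 3 inside the range of Cdo1KKO/Sed. With all libraries it passed as lower in DESeq2 (adjusted p = 0.0317) and in edgeR with no filter on low counts (adjusted p = 0.00146). It also passed without WT/Sed replicate 3 (-0.42, adjusted p = 0.000165 in the same edgeR test). Slc22a15 rose from 2.39, 1.46 and 1.95 to 4.10, 4.38 and 3.12 CPM (0.98 ± 0.23, adjusted p = 0.0057), so that its lowest Cdo1KKO/Sed library was above its highest WT/Sed library. The testis carrier Slc22a16 had 0 counts in every library, which allows up to 0.0281 CPM in WT/Sed or 0.0254 CPM in Cdo1KKO/Sed (3 counts over the libraries of a group, counting error only).

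The main carrier that releases cations to the urine fell by 0.88 on the log2 scale, beside 0.53 for Slc22a2, which is not the only uptake carrier. Slc47a1 (MATE1; chromosome 11, 61343401 to 61378345, minus strand) exchanges cations for protons at the brush border. Its libraries held 849, 933 and 788 CPM in WT/Sed, against 464, 488 and 448 CPM in Cdo1KKO/Sed, or 54.5% of the WT/Sed mean (-0.88 ± 0.07, adjusted p = 2.35e-06). No library of one group reached the range of the other. The log2 ratio of Slc22a2 to Slc47a1 in TPM, a single uptake carrier over a single exit carrier, was -1.05, -1.08 and -1.02 in WT/Sed, against -0.65, -0.74 and -0.72 in Cdo1KKO/Sed, a difference of 0.35 with no overlap (exact 2-sided permutation test p = 0.1, the smallest that 3 against 3 allow, and 0.2 after Benjamini-Hochberg adjustment over 4 ratios). Slc47a2, the neighbour of Slc47a1 on chromosome 11, averaged under 1 CPM and did not pass the test.

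The 2 blood-side exchangers that start the secretion of organic anions both fell. Slc22a6 (OAT1; chromosome 19, 8618039 to 8628299, plus strand), the classical carrier of p-aminohippurate, held 819, 832 and 746 CPM in WT/Sed, against 481, 528 and 446 CPM in Cdo1KKO/Sed (-0.72 ± 0.07, adjusted p = 1.41e-05). Its neighbour Slc22a8 (OAT3; chromosome 19, 8591254 to 8611835, plus strand), which also takes up sulfated steroids and many drugs, held 445, 509 and 372 CPM in WT/Sed, against 257, 273 and 257 CPM in Cdo1KKO/Sed (-0.75 ± 0.10, adjusted p = 0.000549). Both genes were lower in all 3 Cdo1KKO/Sed libraries. The log2 ratio of Slc22a6 to Slc22a8 in TPM was 0.85, 0.68 and 0.98 in WT/Sed, against 0.88, 0.93 and 0.77 in Cdo1KKO/Sed (exact permutation p = 0.9), and the difference of 0.02 was well within the SD of 0.148 in WT/Sed. A further organic anion carrier, Slc22a7 (OAT2; chromosome 17, 46432183 to 46438457, minus strand), fell from 142, 138 and 139 to 85.9, 93.4 and 89.8 CPM (-0.64 ± 0.05, adjusted p = 4.07e-06). Its WT/Sed libraries were within a few CPM of each other.

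Carriers that take urate and other anions back from the filtrate were lower as well. Slc22a12 (URAT1; chromosome 19, 6535845 to 6543032, minus strand) held 648, 704 and 553 CPM in WT/Sed, against 411, 460.0 and 410.3 CPM in Cdo1KKO/Sed (-0.57 ± 0.09, adjusted p = 0.000674). WT/Sed replicate 3 was the lowest of its group and still above every Cdo1KKO/Sed library. The gene lies across Nrxn2, which runs on the other strand, and 27.4% of its 50-mers occur in annotated Nrxn2 transcripts. Slc22a13 (OAT10; chromosome 9, 119192974 to 119209098, minus strand), a urate and nicotinate exchanger, fell to 49.5% of the WT/Sed mean, from 62.5, 49.5 and 72.9 to 30.5, 31.8 and 29.3 CPM (-1.02 ± 0.13, adjusted p = 0.000421), the largest fall among Slc22a members that passed the test. A pseudogene, Slc22a13b-ps, shares 36.0% of its 50-mers, and the annotated span of Slc22a14 covers Slc22a13. Slc22a19 (OAT5), an anion carrier of the brush border, stood at 139.7, 117 and 146 CPM in WT/Sed, against 80.1, 84.3 and 84.7 CPM in Cdo1KKO/Sed (-0.70 ± 0.08, adjusted p = 4.71e-05). In both genes WT/Sed replicate 2 was the lowest of its group.

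Slc22a6, Slc22a8, Slc22a12 and Slc22a19 share chromosome 19 with a cluster of related anion carriers. There 10 members lie between 5970234 and 8628299, of which Slc22a20 was not tested and 7 fell, where 18.5% of all genes tested fell. Slc22a30 (chromosome 19, 8335371 to 8405111, minus strand) fell from 335, 389 and 293 to 214, 228 and 209.5 CPM (-0.64 ± 0.09, adjusted p = 0.000652). Slc22a28 (chromosome 19, 8062209 to 8131982, minus strand) stood at 239, 294 and 209 CPM in WT/Sed, against 171, 186 and 171 CPM in Cdo1KKO/Sed (-0.49 ± 0.12, adjusted p = 0.0121). Its groups were close, since WT/Sed replicate 3 was only a little above the highest Cdo1KKO/Sed library, and the call ended with library size as the only scaling (adjusted p = 0.0644) and with TPM (0.118 in limma). The 2 genes share sequence: 53.3% of the 50-mers of Slc22a28 also occur in Slc22a30, so the split of counts between them is uncertain. Slc22a29, which shares 28.7% of its 50-mers with other genes and stood at 6.81, 6.41 and 9.63 CPM in WT/Sed, went to 4.50, 4.70 and 3.99 CPM (-0.80 ± 0.17, adjusted p = 0.00395). Slc22a26 held 63.8, 44.6 and 81.4 CPM in WT/Sed, against 39.9, 41.3 and 39.7 CPM in Cdo1KKO/Sed. Although its groups did not overlap, its WT/Sed libraries were far apart and it did not pass the test (-0.66 ± 0.22, adjusted p = 0.0658). With all libraries it passed as lower in DESeq2 (adjusted p = 0.0214) and in limma-voom (adjusted p = 0.015). It passed without WT/Sed replicate 2 (-0.85, adjusted p = 1.12e-06 by edgeR) and without WT/Sed replicate 3 (-0.44, adjusted p = 0.0448). Slc22a27, which shares 25.3% of its 50-mers with Slc22a29, averaged under 1 CPM and did not pass, and the olfactory carrier Slc22a20 had 0 counts.

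Of the other Slc22a members, 3 fell, 1 rose and 1 did not pass. Slc22a22, a prostaglandin carrier of rodent kidney (OAT-PG), went from 124, 146 and 116 to 83.7, 85.4 and 80.9 CPM (-0.62 ± 0.08, adjusted p = 0.00012). Slc22a18 (chromosome 7, 143473736 to 143499334, plus strand), from an imprinted region, fell from 294, 327 and 252 to 163, 193 and 159 CPM (-0.76 ± 0.11, adjusted p = 0.000763). In both genes every Cdo1KKO/Sed library was below every WT/Sed library. Slc22a17, a proposed receptor of lipocalin-2, had 17.6, 20.8 and 14.6 CPM in WT/Sed, against 12.8, 14.1 and 12.5 CPM in Cdo1KKO/Sed (-0.42 ± 0.12, adjusted p = 0.0191). Its groups nearly touched, and its call was lost with library size only and with TPM. It was also lost when WT/Sed replicate 1 was left out, or either of replicates 1 and 3 of Cdo1KKO/Sed (edgeR adjusted p 0.0685 to 0.0839). Slc22a23 (chromosome 13, 34179158 to 34345182, minus strand), a carrier with no established substrate, was the most abundant member that rose, from 63.7, 57.5 and 65.9 to 76.99, 82.1 and 75.7 CPM (0.33 ± 0.06, adjusted p = 0.00206). All of its Cdo1KKO/Sed libraries were above WT/Sed. Slc22a14 averaged under 1 CPM and did not pass.

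**Figure D2:**
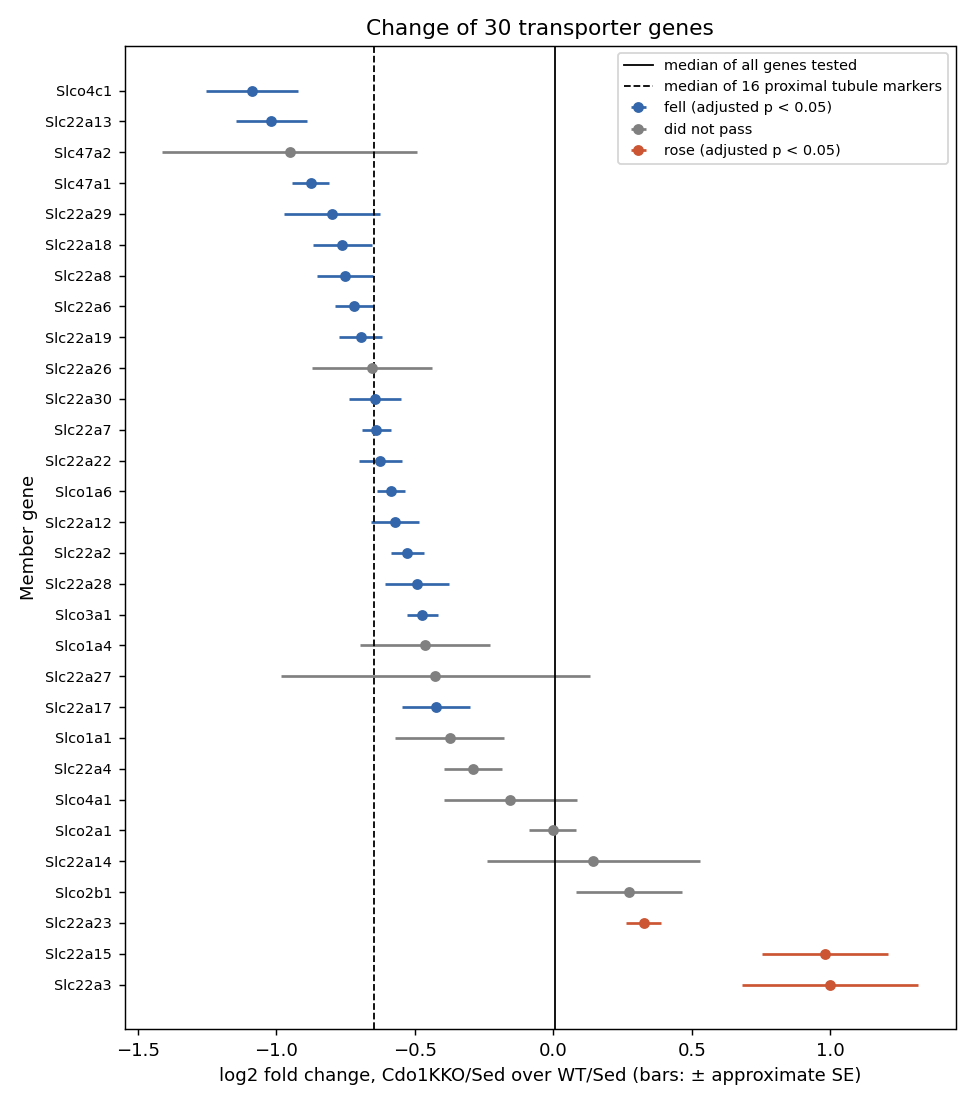
Log2 fold change (Cdo1KKO/Sed over WT/Sed, bars ± approximate SE) of 30 of the 32 members tested; Slco5a1, with 2 counts in WT/Sed, and 1 member that fell are not drawn. The solid line is the median of all genes tested (0.01) and the broken line the median of 16 proximal tubule markers (-0.65), and most of the 17 members drawn that fell lie near the broken line.

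Only some members of the Slco family, which carries steroid conjugates, bile acids, thyroid hormones and prostaglandins, fell. Of 9 members tested 3 fell, 1 rose and 5 did not pass, where 18.5% of all genes tested fell and 18.9% rose. The 1 that rose, Slco5a1, passed the filter on low counts only through Cdo1KKO/Sed and so had to differ. Slco4c1 (chromosome 1, 96816270 to 96872171, minus strand), a blood-side carrier of digoxin and thyroid hormone, had the largest fall of any member that passed: 67.2, 49.1 and 78.96 CPM in WT/Sed against 29.98, 32.6 and 29.5 CPM in Cdo1KKO/Sed, 47.1% of the mean (-1.09 ± 0.17, adjusted p = 0.00237). The Cdo1KKO/Sed libraries were close together and the WT/Sed libraries were not. Slco1a6 (chromosome 6, 142085761 to 142208521, minus strand), abundant in mouse proximal tubule, held 397, 389 and 402 CPM in WT/Sed, against 263, 275 and 254 CPM in Cdo1KKO/Sed (-0.59 ± 0.05, adjusted p = 6.35e-06). Slco3a1 fell from 208, 222 and 198 to 153, 153 and 146 CPM (-0.47 ± 0.06, adjusted p = 6.92e-05). Both had narrow ranges within each group.

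Slco1a1, second to Slco1a6 among Slco members in TPM, did not pass the test. Slco1a1 (chromosome 6, 141907282 to 141946962, minus strand), a steroid sulfate carrier that is higher in male than in female mouse kidney, held 411, 520.0 and 321 CPM in WT/Sed, against 308, 367 and 290.2 CPM in Cdo1KKO/Sed (-0.37 ± 0.20, adjusted p = 0.203). WT/Sed replicate 3 lay inside the range of Cdo1KKO/Sed and replicate 2 far above it. The log2 ratio of Slco1a1 to its neighbour Slco1a6 in TPM was -0.42, -0.05 and -0.79 in WT/Sed, against -0.24, -0.05 and -0.28 in Cdo1KKO/Sed (exact permutation p = 0.5), so its spread in WT/Sed covered the range of Cdo1KKO/Sed. Transcripts of 4 Y-linked genes summed to 265, 248 and 289.6 CPM in WT/Sed, against 235, 218 and 245 CPM in Cdo1KKO/Sed, and Xist was at most 0.349 CPM, so Y-linked transcripts were counted in all 6 libraries, although 3 of the 4 genes fell. Of 6 genes listed as male-biased in mouse kidney, 2 of them also on the proximal tubule list, 5 fell, and of 4 listed as female-biased, Xist included, 2 fell. Their part in the level of Slco1a1 was not tested.

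Other Slco members of at least 1 CPM were low, and they varied more within WT/Sed than within Cdo1KKO/Sed. The prostaglandin transporter Slco2a1 stood at 31.3, 25.2 and 30.8 CPM in WT/Sed, against 29.3, 29.6 and 28.6 CPM in Cdo1KKO/Sed (-0.00 ± 0.08, adjusted p = 0.988). On the TPM scale its Cdo1KKO/Sed libraries were all above those of WT/Sed, and it did not pass there either (adjusted p = 0.117, limma). Slco4a1, a thyroid hormone carrier, held 21.5, 12.5 and 24.96 CPM in WT/Sed, against 18.4, 18.6 and 16.3 CPM in Cdo1KKO/Sed (-0.16 ± 0.24, adjusted p = 0.661). It passed as lower without WT/Sed replicate 2 (-0.38, edgeR adjusted p = 0.00217), the library in which it was lowest. Slco2b1 held 7.07, 8.17 and 4.79 CPM in WT/Sed, against 6.98, 9.38 and 7.65 CPM in Cdo1KKO/Sed (0.27 ± 0.19, adjusted p = 0.301), with groups that overlapped in CPM. In TPM its groups did not overlap, at 2.70, 3.07 and 1.85 in WT/Sed against 3.19, 4.20 and 3.50 in Cdo1KKO/Sed. Slco1a4 held 4.47, 3.22 and 2.51 CPM in WT/Sed, against 2.82, 2.39 and 2.22 CPM in Cdo1KKO/Sed (-0.46 ± 0.23, adjusted p = 0.149). Slco1a4 passed as lower without WT/Sed replicate 3 (edgeR adjusted p = 0.0223).

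Slco5a1 (chromosome 1, 12866549 to 12992650, minus strand), a member with no settled substrate, was almost absent from WT/Sed, with counts of 2, 0 and 0, and had counts of 20, 40 and 26 in Cdo1KKO/Sed. The ratio of the summed counts, scaled to library size, was 38.8 with a 95% counting interval of 10.4 to 325. Because the gene passed the filter only through Cdo1KKO/Sed, its call is no independent support of the difference. At 0.612, 1.01 and 0.567 CPM it remained among the lowest members detected in Cdo1KKO/Sed. Slco1b2 (the liver carrier), Slco1a5 and Slco1c1 (a thyroxine carrier of brain vessels) had 4 to 26 counts over all 6 libraries and were not tested. Slco6c1 and Slco6d1, known from testis, had 0 counts.

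**Figure D3:**
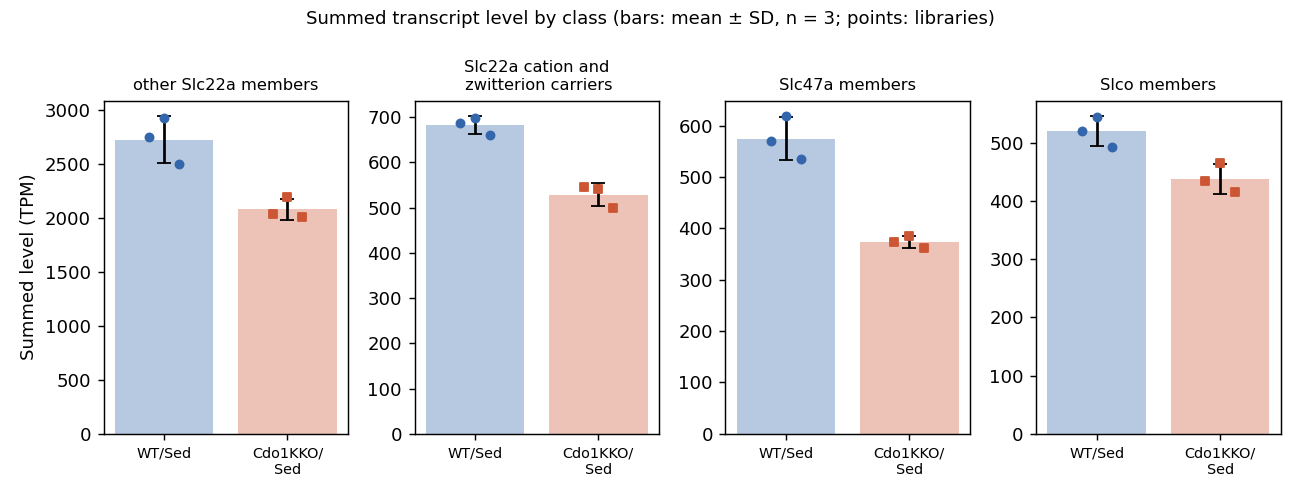
Summed deposited TPM by class of carrier, with bars for the mean ± SD of 3 libraries and points for libraries. In each of the 4 classes the 3 Cdo1KKO/Sed libraries lie below the 3 WT/Sed libraries.

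The summed TPM of each of the 4 classes was lower in the Cdo1KKO/Sed libraries. The 17 Slc22a members other than the cation and zwitterion carriers summed to 2753, 2933 and 2506 TPM in WT/Sed, against 2039.5, 2196 and 2009 TPM in Cdo1KKO/Sed, 76.2% of the mean. For the 6 cation and zwitterion carriers the sums were 687, 699 and 660.5 TPM against 547, 540.4 and 500.1 TPM (77.6%). The Slc47a pair, nearly all of it Slc47a1, had the largest relative difference, with 571, 618 and 536 TPM against 373, 385 and 361 TPM (64.9%). The 14 Slco members had the smallest, with 520.3, 545 and 494 TPM against 434, 466 and 415 TPM (84.3%). The groups did not overlap in any of these 4 sums (exact 2-sided permutation test, p = 0.1 for each and 0.1 adjusted over the 4, the smallest possible). TPM carries no TMM scaling: with TMM-scaled counts per kb, the log2 differences were -0.64, -0.62, -0.88 and -0.50 in the same order, against -0.39, -0.37, -0.62 and -0.25 with TPM.

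Other transcripts of the proximal tubule were lower as well. The markers, such as the endocytic receptor Lrp2 and the phosphate transporter Slc34a1, summed to 29224, 29534 and 28552 CPM in WT/Sed, against 17465, 18377 and 16958 CPM in Cdo1KKO/Sed. Of 16 markers 15 fell, with a median log2 fold change of -0.65, beside -0.55 for all 32 members tested. With libraries scaled to these markers, the median of the members became 0.083 and that of all genes 0.64. Then Slco4c1 (-0.45), Slc22a13 (-0.38) and Slc47a1 (-0.24) were the 3 members that fell, with edgeR adjusted p of 0.0164, 0.0063 and 0.00914. Slc22a6 and Slc22a8 stood at -0.09 and -0.12 and did not pass. The 8 that rose were Slc22a23, Slc22a15, Slc22a3, Slco5a1, Slc22a4, Slco2a1, Slco2b1 and Slco3a1, of which Slco3a1 had fallen under TMM (0.16, adjusted p = 0.0471).

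**Figure D4:**
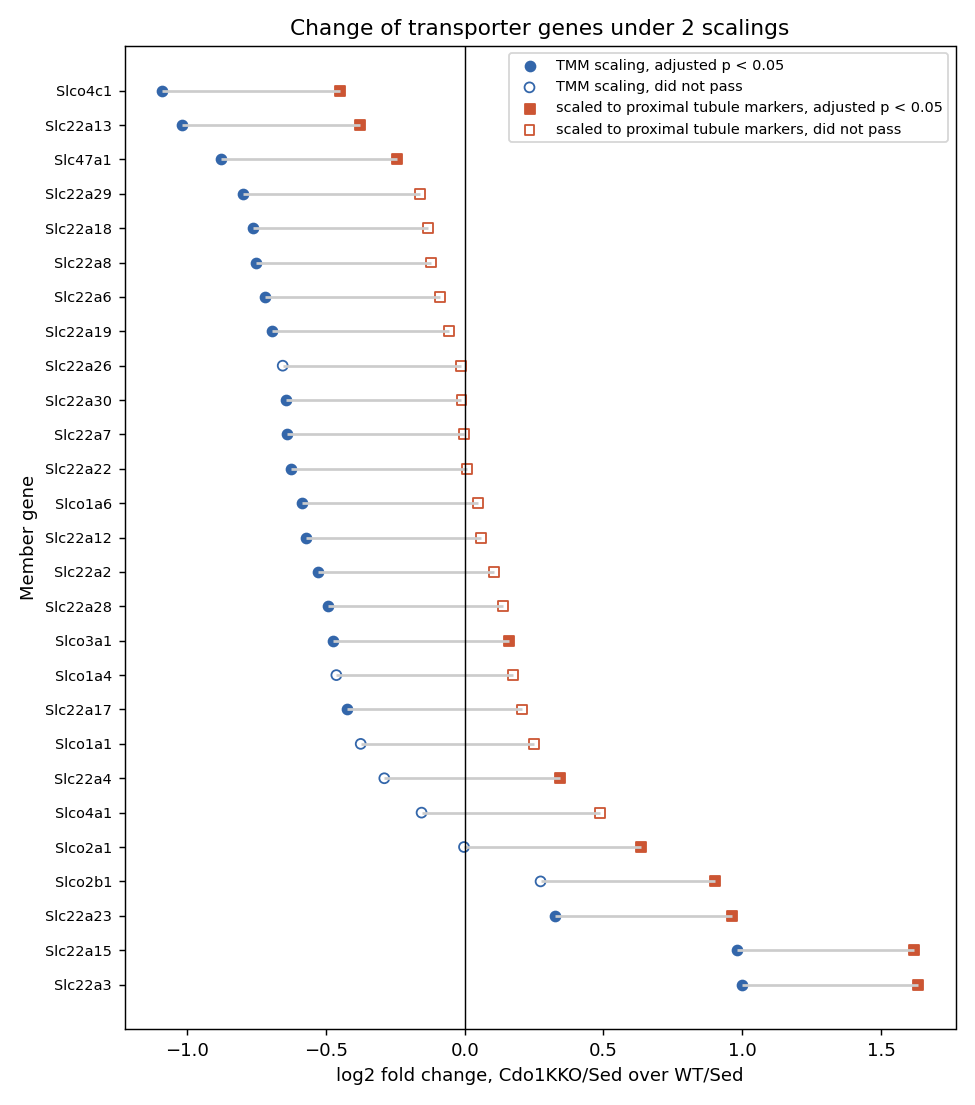
Log2 fold change of 27 members under TMM scaling (circles) and with libraries scaled to 16 proximal tubule markers (squares), where filled symbols have an adjusted p under 0.05 and Slco5a1 is not drawn. Under the marker scaling the members move towards 0 or above it, and Slco4c1, Slc22a13 and Slc47a1 remain lower.

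Markers of other cells moved between the groups, and their part in the results was not tested. All 8 markers of injured tubules rose, and their sum went from 1045, 903 and 1159 to 9439, 8324 and 10146 CPM. Among these, Lcn2, whose product Slc22a17 is proposed to bind, went from 3.96 to 1169 CPM. Thick limb markers summed to 2678, 2204 and 2999.9 CPM in WT/Sed, against 3981, 3856 and 4100.3 CPM in Cdo1KKO/Sed (3 of 4 rose and 1 fell), and markers of the distal convoluted tubule to 1290.4, 1447 and 1164 against 1892, 1901 and 1868 CPM (2 of 3 rose). Collecting duct markers went from 465, 459 and 477 to 244, 246 and 246 CPM, with 2 of 5 lower and 1 higher. The lower sum lay in Aqp2 (mean 293 to 107 CPM) and Aqp3 (112 to 52.9 CPM). Slc4a1 rose from 18.5 to 36.6 CPM, and Atp6v1g3 and Avpr2, which did not pass, had higher means in Cdo1KKO/Sed. Macrophage markers summed to 70.5, 85.9 and 55.9 against 103, 111 and 104 CPM (4 of 6 rose, 1 fell), and fibroblast and pericyte markers to 26.2, 26.1 and 19.4 against 54.3, 49.9 and 57.1 CPM (4 of 4 rose). None of 4 podocyte and none of 6 endothelial markers passed the test. Liver also expresses Slc22a7 and Slco1b2. Of 6 liver markers Ahsg, Cps1 and Cyp3a11 were at or near 0 in these kidneys (at most 0.133 CPM in the group means), and of the 3 tested, 2 fell (Ttr and Apoa2).

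The WT/Sed libraries differed among themselves in the carriers, and did so in 2 opposite ways. Of the 28 members of at least 1 CPM, 14 were highest in WT/Sed replicate 2 and lowest in replicate 3, Slco1a1, Slc22a28 and Slc22a8 among them. Another 8 had the reverse order: Slco1a6, Slc22a19, Slc22a23, Slc22a26, Slco4c1, Slc22a13, Slco4a1 and Slc22a29. The coefficient of variation was larger in WT/Sed than in Cdo1KKO/Sed for 24 of the 28, with medians of 14.9% and 4.68%. Slc22a7 and Slco1a6 were the steadiest in WT/Sed, at 1.57% and 1.68%. In the same libraries, endothelial markers summed to 141, 242 and 59.7 CPM in WT/Sed, against 233, 222 and 223 CPM in Cdo1KKO/Sed, podocyte markers to 272, 391 and 195 against 264, 245 and 265 CPM, and Cyp4a14, a lipid hydroxylase, stood at 709, 32.4 and 1234 CPM in WT/Sed. Proximal tubule markers, given above, varied by far less between these 3 libraries. What part these differences have in the order of the carriers was not tested.

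**Figure D5:**
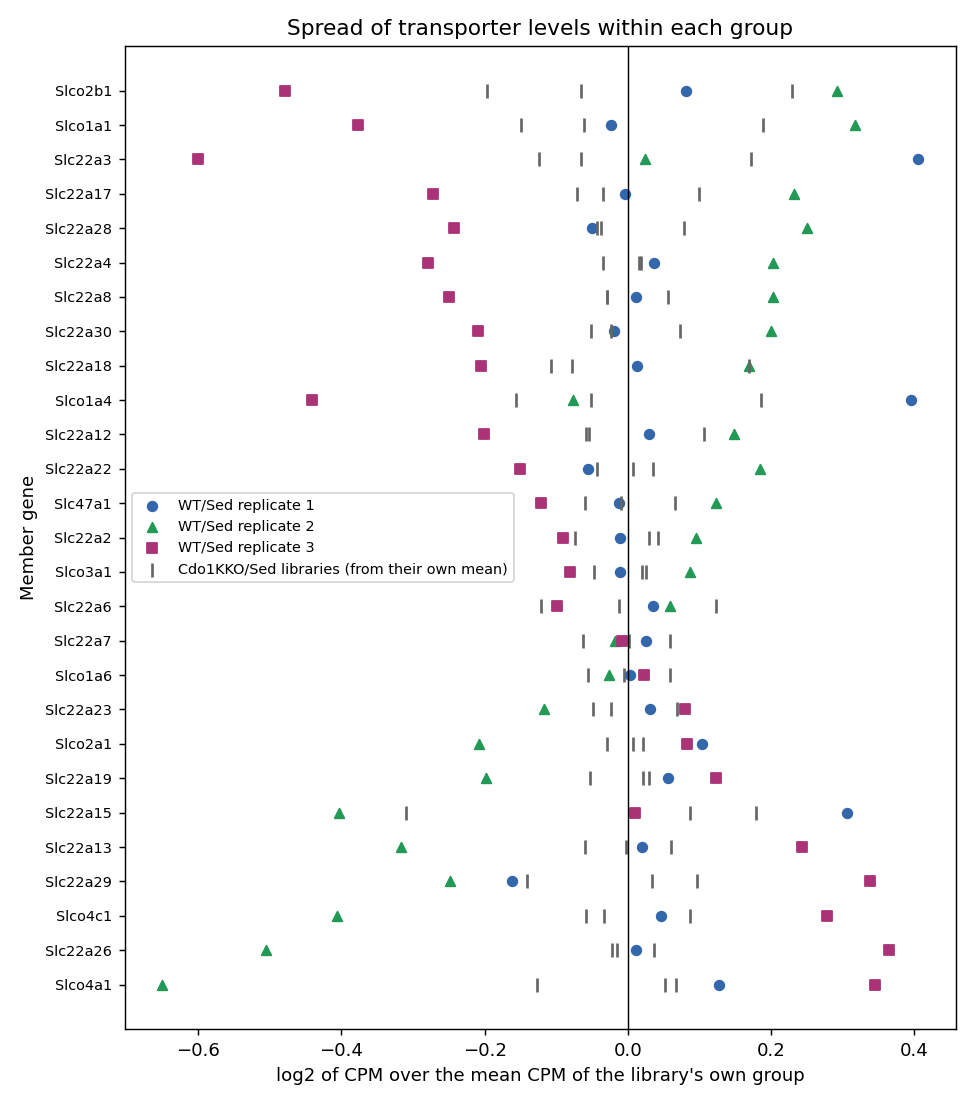
Log2 of the CPM in each library over the mean of its own group, for 27 of the 28 members of at least 1 CPM (circles, triangles and squares: WT/Sed replicates 1, 2 and 3; ticks: Cdo1KKO/Sed libraries). The triangles and squares lie on opposite sides for most members, and the ticks lie closer to 0 than the WT/Sed symbols for most members.

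Genes that work with these carriers were more often lower than higher with TMM scaling, a balance that turned when libraries were scaled to proximal tubule markers. Of 29 related genes tested from a list of 30, 16 fell and 2 rose, where 18.5% of all genes tested fell and 18.9% rose. Their median log2 fold change was -0.25. With the marker scaling 2 fell and 18 rose, where 1.38% and 71.1% of all genes did, and with TPM 9 fell and 7 rose, where 7.26% and 39% did. The dicarboxylate transporters, which supply the ions that the blood-side anion exchangers trade, fell: Slc13a2 from 34.6 ± 0.953 to 13.7 ± 0.506 CPM (mean ± SD; -1.34 ± 0.07, adjusted p = 1.54e-07) and Slc13a3 from 551 ± 32.97 to 342 ± 16.8 CPM (adjusted p = 7.04e-06). Anion exits of the brush border were lower, with Slc17a1 at 1002 ± 60.2 and 530.4 ± 22.2 CPM (-0.92 ± 0.06, adjusted p = 6.17e-07) and Slc17a3 at 863 ± 16.96 and 554 ± 14.9 CPM (adjusted p = 1.94e-06), and so was the urate carrier Slc2a9 (-0.52 ± 0.07, adjusted p = 0.000176).

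Of 9 ABC efflux pumps tested, which use ATP, 4 fell and 2 rose, where 18.5% of all genes tested fell and 18.9% rose. Abcg2, a urate and drug pump, fell from 616 ± 40.5 to 459 ± 10.97 CPM (-0.42 ± 0.06, adjusted p = 0.000161), a call lost with TPM (limma adjusted p = 0.0505). Abcc3, a blood-side pump of conjugates, rose from 1.49 ± 0.341 to 4.44 ± 0.763 CPM (1.56 ± 0.22, adjusted p = 0.000262), and Abcc1, named after its values were seen, was the other that rose (0.48 ± 0.07, adjusted p = 0.000416). The scaffold Pdzk1, which holds Slc22a12 and other carriers at the brush border, fell from 597 ± 3.18 to 437 ± 4.16 CPM (-0.45 ± 0.04, adjusted p = 1.80e-05). Of the transcription factors listed 7 were tested and 3 fell, beside the 18.5% of all genes tested. Among these 3 were Hnf4a from 828 ± 54.4 to 489.9 ± 16.5 CPM (-0.76 ± 0.06, adjusted p = 2.83e-06) and the bile acid receptor Nr1h4 from 236 ± 23.9 to 142 ± 7.19 CPM (-0.74 ± 0.07, adjusted p = 2.23e-05).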

How the data were processed

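Kidney poly(A) RNA was measured in 6 libraries from diabetic mice (WT/Sed 3, Cdo1KKO/Sed 3). The authors deposited whole-number counts per gene and TPM values, which follow from the counts with 1 length per gene. Per the submitters' processing notes, fastp 0.23.4 and the builds GRCm38 and mm10 were used; which aligner, counter, annotation and strand setting followed is not given in the sources used here. Positions came from GENCODE M21 (GRCm38) and promoters from RefSeq (GRCm38.p6). Counts were fitted with edgeR 4.0.16 in R 4.3.3 (filterByExpr, TMM, robust quasi-likelihood test, genotype only) over 17194 genes, and adjusted by Benjamini-Hochberg. The script was tested on simulated data; its passing criterion was narrowed to genes of at least 10 CPM after the first outcome missed it, the fit was left as it was, and false calls in the simulation exceeded the nominal share, so calls near the threshold are less certain than their adjusted p. Members, lists and tests were chosen with earlier results of these data known. Members were named with values where their mean was at least 1 CPM or they were called, and related genes where they were among the 10 with the smallest p; Abcc1 and the markers named were added after their values were seen. One member and some related genes are counted in totals and sums but not reported here by name. Alternatives used other scalings, limma 3.58.1, DESeq2 1.42.0, other filters, TPM (pseudocounts 1 and 0.1), a replicate block and each library left out. Sequence sharing was counted as transcript 50-mers found in any other GENCODE gene on either strand. Reads carry no molecular identifiers, so counting limits cover counting error only. Figures used matplotlib 3.10.9.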

Additional observations from a re-analysis of the deposited data

How the results depend on the processing

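The count of members that fell ranged from 16 to 21 over all alternatives but the scaling to proximal tubule markers, and the count that rose from 3 to 4; leaving out each library in turn gave 17 to 21 and 3 to 4. All 18 members that fell were shared with RLE and upper-quartile factors, limma-voom, DESeq2, both filters and the block. With library size only, or TPM with either pseudocount, Slc22a17 and Slc22a28 were lost. The filter of 1 CPM removed Slco5a1. Scaled to the tubule markers, 3 members fell and 8 rose, 2 related genes fell and 18 rose, and 237 of all genes fell and 12220 rose. Library size only gave 1685 and 5513 of all genes (23.4% falls against 49.5% with TMM) and 5 related genes that rose. TPM gave 1249 and 6714 with a pseudocount of 1, and 1240 and 6617 with 0.1, with 9 related genes lower and 7 higher in each. These scalings moved the median of all genes from 0.01 to 0.18 (library size), 0.19 and 0.25 (TPM) and 0.64 (markers).

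Under the marker scaling these values were above 0: Slc22a12 0.059, Slco1a1 0.25, Slco1a6 0.049, Slc22a2 0.11, Slc22a28 0.14, Slco3a1 0.16, Slc22a22 0.0081, Slc22a4 0.34, Slco2a1 0.64, Slco4a1 0.49, Slc22a17 0.21, Slco1a4 0.17, Pdzk1 0.18, Abcg2 0.21 and Slc2a9 0.12. Slco2a1, at -0.0024 with all libraries, was also above 0 with upper-quartile factors (0.0019), library size only (0.17), no filter (0.00048), the 1 CPM filter (0.012), TPM (0.22 and 0.26), the replicate block (0.0048) and with 3 single libraries left out (range -0.091 to 0.052). Slco4a1 turned to 0.015 with library size only and to 0.14 and 0.16 with TPM, and leaving out single libraries gave -0.38 to 0.043. The log2 differences of class sums with TMM-scaled counts per kb were -0.64, -0.62, -0.88 and -0.50. Leaving out single libraries moved the Slc22a6 to Slc22a8 ratio between -0.059 and 0.089. For these sign changes near 0 the cause was not tested.

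The labels do not say that the replicate numbers pair libraries, and same-numbered libraries did not deviate together (correlations -0.0022, 0.010 and 0.013), and not every library correlated best with its own number. With the replicate block 20 members fell, 4 rose, 16 related genes fell and 2 rose, and 3029 of all genes fell and 3117 rose; Slco1a1 (-0.35, edgeR adjusted p = 0.00443) and Slc22a4 (-0.28, adjusted p = 0.0481) were the members added. Depth limits the members under 1 CPM, where 3 counts over a group equal 0.0281 and 0.0254 CPM.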
